A study of Mus musculus with 2 samples.

Results

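The adrenal gland joins a steroid-producing cortex to a medulla of chromaffin cells, which arise from the neural crest, store catecholamines and are driven by sympathetic nerve fibers. A group of 10 miRNA genes known from neurons was followed here in whole adrenal tissue: Mir129-1, Mir129-2, Mir153, Mir137, Mir138-1, Mir138-2, Mir9-1, Mir9-2, Mir9-3 and Mir338. They were taken by gene name from the 2202 miRNA genes of the deposited tables, and all 10 were found. The mice were 5xFAD/CAST females of 8 to 10 months, and the tissue gave 2 libraries of 1 group, biological replicates 1 and 2, with no treatment named. 5xFAD is a transgenic line used as a model of Alzheimer's disease, with transgenes driven by the neuronal Thy1 promoter, and CAST is a wild-derived inbred strain. Whether each animal carried the transgenes is not stated in the labels. The replicates share a donor identifier, and whether they come from separate animals is not clear. A difference between these samples may thus be technical or lie between animals. No contrast between conditions exists in this design, and the question put to these genes was which of them were present and whether they moved together between the libraries.

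A miRNA is cut from a hairpin precursor as a strand of about the length of the sequences printed below, from the 5p or the 3p arm, and it finds its targets mainly through its seed, bases 2 to 8. Several neuronal miRNAs are made from more than 1 genomic copy. Their identical mature strands then fit every copy equally well, and in these tables reads with several genomic matches were left out of the gene counts. The counts are per hairpin and do not tell the arms apart.

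Mature strands of the 7 genes that were detected are printed, without miR-137-5p and miR-338-5p, because they set what can be counted. All come from the RefSeq table for GRCm38.p6, the same assembly as mm10, in which all 10 genes matched. The seed is in capitals.
miR-129-5p, at both chr6:29022624-29022644 (plus strand) and chr2:94241419-94241439 (minus strand): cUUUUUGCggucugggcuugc
miR-129-2-3p, chr2:94241376-94241397 (minus strand): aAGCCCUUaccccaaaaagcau
miR-153-5p, chr12:117250821-117250843 (plus strand): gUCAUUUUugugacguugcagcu
miR-153-3p, chr12:117250860-117250881 (plus strand): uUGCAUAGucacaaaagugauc
miR-137-3p, chr3:118433901-118433923 (plus strand): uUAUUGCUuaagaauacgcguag
miR-138-5p, at both chr9:122682898-122682920 and chr8:94324312-94324334 (plus strand): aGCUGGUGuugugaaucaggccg
miR-138-1-3p, chr9:122682936-122682957 (plus strand): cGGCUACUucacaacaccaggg
miR-138-2-3p, chr8:94324359-94324379 (plus strand): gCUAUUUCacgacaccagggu
miR-338-3p, chr11:120014781-120014802 (minus strand): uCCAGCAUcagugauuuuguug
Apart from copies of the same gene, no seed was shared between these miRNAs or with any other mature miRNA of the table. miR-129-5p was found exactly in 2 annotated miRNA genes, Mir129-1 and Mir129-2, and miR-138-5p in 2, Mir138-1 and Mir138-2, whereas each of the other strands printed was found in 1.

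The miR-9 strands, which act in neurogenesis, are the case in which nothing is left to tell the loci apart. Each was found exactly in 3 miRNA genes, Mir9-1, Mir9-2 and Mir9-3.
miR-9-5p, for example chr3:88215613-88215635 (plus strand): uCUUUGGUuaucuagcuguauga
miR-9-3p, for example chr3:88215652-88215673 (plus strand): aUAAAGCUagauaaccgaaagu

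For the miR-129 loci the 3p arms differ by 1 base. The stretch of the Mir129-1 hairpin that lines up with miR-129-2-3p carries 1 mismatch, C20U, counted from 1 at the 5′ end of the arm, and the first 19 bases are identical. The differing base is in capitals.
miR-129-2-3p: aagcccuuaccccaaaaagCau
Mir129-1, chr6:29022667-29022688 (plus strand): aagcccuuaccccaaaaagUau
The counts of Mir129-1 and Mir129-2 are therefore uncertain against each other. Reads of the 3p arms that end before base 20 fit both loci, and a read with an error at that base would move from one to the other. How many did so was not tested. The 3p arms of the miR-138 loci differ at 2 of 22 positions, C7U and A13G from miR-138-1-3p to the Mir138-2 hairpin, and have at most 9 bases in a row in common.

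In the column that counts 1 strand, used for all values below unless stated, the libraries held 3635851 reads on miRNA genes in replicate 1 and 6924829 in replicate 2, of 7774567 and 15391360 reads in all. Levels are in CPM, reads per 1000000 reads on miRNA genes, and are given with the mean ± SD over both libraries. Multimapping reads made up 31.6% and 33.6% of all reads. Mir375, enriched in endocrine cells, stood at 46454 and 43995 CPM, and the steroidogenic and ACTH response list, led by Mir139, had all 8 of its genes detected. All 4 genes of the leukocyte list were detected too, and no other tissue was compared, so detection alone does not mark the gland.

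Of the 10 neuronal genes, 7 were detected, that is they reached 10 reads in both libraries, and the same 7 were tested for a difference between the libraries. By the same limit, 356 of all 2202 miRNA genes were detected. Together the 10 genes took 0.304% of the reads of replicate 1 and 0.119% of those of replicate 2, or 0.212% ± 0.131 (SD, n = 2). The 95% intervals (Clopper-Pearson, exact) ran from 0.299 to 0.310% and from 0.116 to 0.121%. These intervals, and all that follow, cover counting error only and leave out the spread between samples. Amplified reads that carry no molecular identifier do not each stand for a molecule, so even the counting error may be larger. Most of the difference lay in 3 genes. Mir129-1, Mir129-2 and Mir153 together stood at 1857 and 290 CPM, whereas the other 7 together stood at 1187 and 896 CPM.

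**Figure D1:**
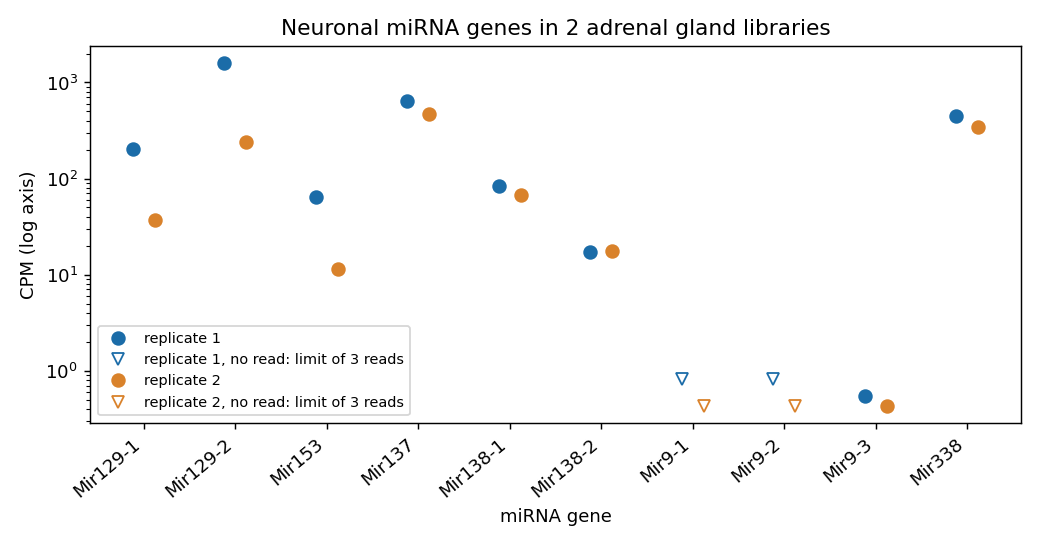
Level of each neuronal miRNA gene in the 2 adrenal libraries, in CPM on a log axis. Filled points are measured values of replicate 1 (blue) and replicate 2 (orange), and open triangles mark genes without a read at the limit of 3 reads (0.825 and 0.433 CPM), which holds for uniquely placed reads only. Mir129-1, Mir129-2 and Mir153 are far lower in replicate 2, and the points of Mir137, Mir138-1, Mir138-2 and Mir338 lie close together.

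Mir129-2, one of the copies that make miR-129, a miRNA studied for its control of neuronal excitability, had 5791 reads in replicate 1 and 1676 in replicate 2, or 1593 and 242 CPM (917 ± 955, SD, n = 2). Replicate 2 was 6.58-fold lower, a log2 ratio of -2.72 (95% counting interval -2.80 to -2.64). Mir129-2 (ENSMUSG00000065511.1) lies on chromosome 2 at 94241364 to 94241453 in mm10, in an intron of the noncoding gene Mir670hg on the same strand. Its opposite-strand partner Mir129b covers 94241378 to 94241442 and had 0 reads on its own strand in both libraries. Because of that overlap, the both-strand column credited Mir129-2 with 0 and 1 reads, so the gene is visible only when the strands are counted apart.

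Mir129-1 (ENSMUSG00000065469.1), which overlaps an exon of the lincRNA gene Gm3294 on chromosome 6 (29022619 to 29022691), had 730 and 254 reads, or 201 and 36.7 CPM (119 ± 116, SD, n = 2). The log2 ratio was -2.45 (-2.66 to -2.24), and Fisher's exact test, two-sided and adjusted by Benjamini-Hochberg over all tested genes, gave adjusted p = 1.27e-141. Mir129-2 outnumbered Mir129-1 in uniquely placed reads 7.93-fold in replicate 1 and 6.60-fold in replicate 2. The counting intervals of the log2 ratios overlapped only narrowly, -2.80 to -2.64 for Mir129-2 and -2.66 to -2.24 for Mir129-1. Whether the proportion of the copies differed between the libraries was not tested. Both loci summed to 1794 and 279 CPM. With 1 base to separate the 3p arms, the falls of the copies are not independent observations.

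Mir153 shares neither a seed nor a 20-base stretch with any other annotated miRNA gene, so its count is separate from the placing of miR-129 reads. miR-153 is known for targeting genes of synaptic vesicle release. It had 232 reads in replicate 1 and 79 in replicate 2, or 63.8 and 11.4 CPM (37.6 ± 37.1, SD, n = 2). The log2 ratio was -2.48 (-2.87 to -2.11), adjusted p = 1.88e-46 in Fisher's exact test, and its interval overlapped those of both miR-129 loci. Mir153 (ENSMUSG00000065538.1) lies on chromosome 12 at 117250817 to 117250885, on the same strand as Ptprn2, in an intron. Ptprn2 encodes a membrane protein of dense-core vesicles, the organelles in which endocrine cells and neurons store hormones and catecholamines.

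The other detected genes stayed close to equal. Mir137, known for its part in neuronal maturation, had 2327 and 3255 reads, or 640 and 470 CPM (555 ± 120, SD, n = 2), a log2 ratio of -0.45 (-0.52 to -0.37). It shares no 20-base stretch with another miRNA gene, and its hairpin overlaps an exon of the noncoding Gm26871 (chromosome 3, 118433857 to 118433929). Mir338, which lies in an intron of Aatk on chromosome 11 at 120014765 to 120014862 and is known from oligodendrocyte differentiation and neurons, had 1622 and 2362 reads, or 446 and 341 CPM (394 ± 74.3, SD, n = 2). Its log2 ratio was -0.39 (-0.48 to -0.30). The opposite-strand gene Mir3065 had 18 and 27 reads on its own strand, and the both-strand column counted 0 reads for Mir338.

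miR-138 is known from the control of dendritic spine size. Mir138-1 (chromosome 9, 122682876 to 122682974) stood at 83.6 and 66.7 CPM, from 304 and 462 reads, with a log2 ratio of -0.33 (-0.54 to -0.11). Mir138-2 (chromosome 8, 94324311 to 94324381) stood at 17.1 and 17.5 CPM, from 62 and 121 reads, with a log2 ratio of 0.03 (-0.42 to 0.50) and adjusted p = 0.986 in Fisher's exact test. Both hairpins overlap exons of noncoding genes, Gm47135 and C78859. Reads of the shared miR-138-5p strand fit both loci, so these counts hold only what could be placed. Mir138-1 had 4.90 times the reads of Mir138-2 in replicate 1 and 3.82 times in replicate 2.

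The miR-9 genes had almost no placed reads. Mir9-1 (chromosome 3, 88215598 to 88215686) and Mir9-2 (chromosome 13, 83738814 to 83738885) had 0 reads in both libraries, and Mir9-3 (chromosome 7, 79505264 to 79505353) had 2 and 3. Gm25641, the opposite-strand gene of Mir9-1 (chromosome 3, 88215589 to 88215696), had 0 reads in both. At these depths, 0 reads leave room for uniquely placed reads up to the worth of 3, which is 0.825 CPM for replicate 1 and 0.433 CPM for replicate 2. This sets no limit on miR-9 itself, since both strands fit all 3 loci.

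**Figure D2:**
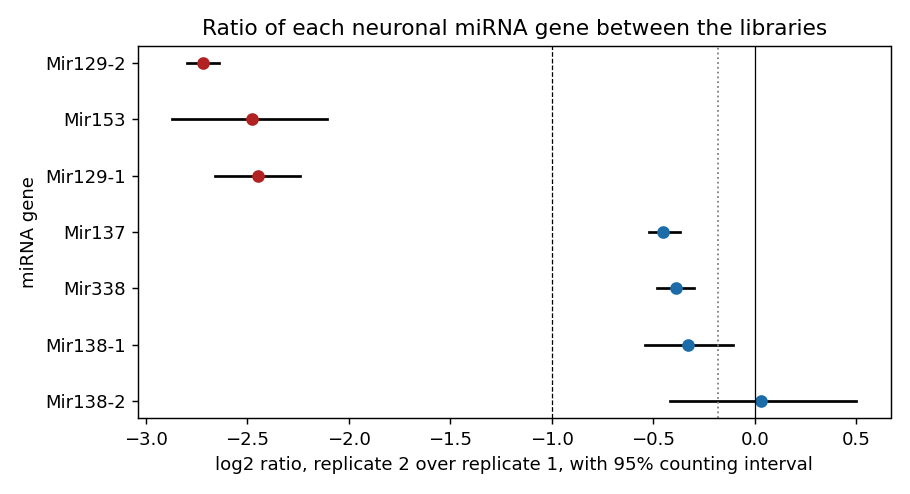
Log2 ratio of replicate 2 over replicate 1 for the 7 tested neuronal miRNA genes, with exact 95% counting intervals as bars. The dashed line marks a 2-fold fall and the dotted line the median of all tested genes, -0.18. Mir129-2, Mir153 and Mir129-1 (red) lie between -2.72 and -2.45, and the other 4 (blue) between -0.45 and 0.03.

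By mean level the order was Mir129-2, Mir137, Mir338, Mir129-1, Mir138-1, Mir153 and Mir138-2. It was not the same in both libraries. Mir129-2 was 2.49 times Mir137 in replicate 1 and 0.515 times in replicate 2, so the leading gene changed. The SD of Mir129-2 also exceeded its distance from Mir137, that of Mir129-1 its distance from Mir138-1, and that of Mir153 its distance from Mir138-2, and each of these neighbors changed places between the libraries. Mir338 kept to 0.697 and 0.726 times Mir137. These levels compare strands of like length, but ligation bias and the reads lost to copies differ between genes.

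A fall was defined as at least 2-fold and adjusted p under 0.05 in Fisher's exact test, which compares the reads of these libraries and not conditions. It was met by 3 of the 7 tested neuronal genes, against 37 of all 455 tested miRNA genes, or 8.13%. The neuronal genes were chosen with earlier results of these data known, and Mir129-1 and Mir129-2 are not independent. Shares of the group therefore describe these libraries and are no test of the group. At least 4-fold, a limit set after the values were seen, was met by the same 3 genes, against 10 of 455, or 2.20%. None of the 7 was at least 2-fold higher, as 2.86% of all tested genes were. A lower level of any size was called in 6 of 7, beside 35.6% of all tested genes, and the differences of Mir137, Mir338 and Mir138-1 (adjusted p = 1.14e-28, 6.43e-16 and 0.00577 in Fisher's exact test) were of a size shared by much of the profile. The median log2 ratio was -0.45 over the 7 and -0.18 over all tested genes. With TMM factors, which brought that median to -0.03, the split of all 2-fold calls went from 37 lower and 13 higher to 25 lower and 18 higher. Mir129-2, Mir153 and Mir129-1 then stood at -2.57, -2.33 and -2.31, Mir137 and Mir338 at -0.30 and -0.24, and Mir138-1 at -0.18, no longer called (adjusted p = 0.151 by the exact binomial test with scaled totals).

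Fisher's test leaves out the spread between samples. edgeR's exact test was run on plain totals, without TMM factors, and given 1 common dispersion from these libraries, a biological coefficient of variation of 32.2%. It called 1 of the 7 lower, beside 0.440% of all tested genes (2 of 455). That gene was Mir129-2 (adjusted p = 0.0191). Mir129-1 and Mir153 just missed the threshold, with adjusted p of 0.0609 and 0.0610. When the dispersion was taken from detected genes alone (31.4%), an alternative added after the values were seen, 3 of the 7 were called, beside 0.879% of all tested genes, with adjusted p of 0.0401 for both Mir129-1 and Mir153 and 0.0127 for Mir129-2 by edgeR. Mir137, Mir138-1, Mir138-2 and Mir338 had an adjusted p of 1.00 by edgeR in both settings. The dispersion comes from the same pair of libraries as the difference, so no replicate check of any of these calls exists.

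**Figure D3:**
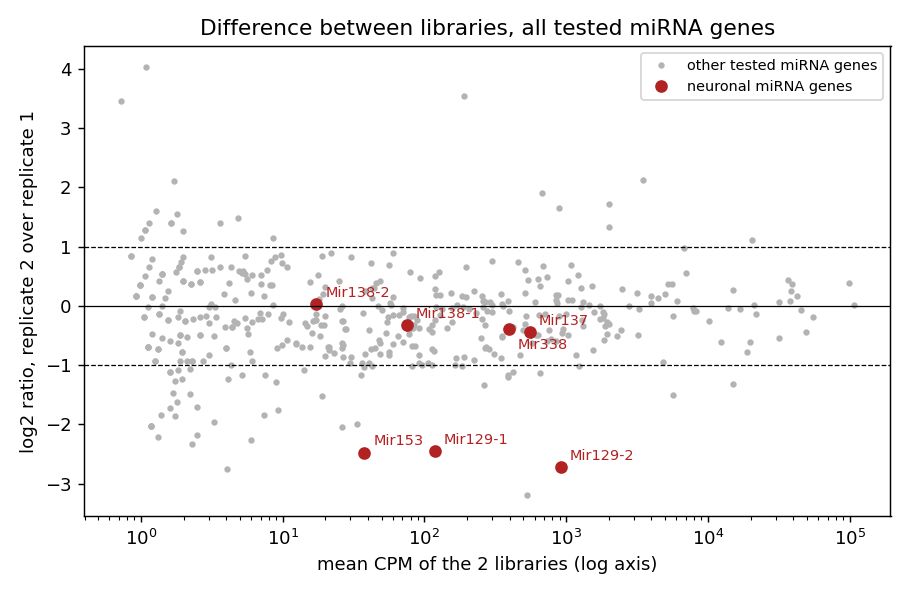
Log2 ratio of replicate 2 over replicate 1 against mean CPM (log axis) for all 455 tested miRNA genes, with the 7 tested neuronal genes in red and dashed lines at 2-fold. Mir129-1, Mir129-2 and Mir153 lie at the lower edge of the cloud for their level, beside Mir185 at -3.19, and the other 4 lie within it.

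Among the 10 genes at least 4-fold lower, the 7 that are not neuronal members were mostly of low level. Mir185, in an intron of Tango2, was the only one with a mean of at least 100 CPM, at 951 and 104 CPM (log2 ratio -3.19, edgeR adjusted p = 0.00244). The lowest ratios after it among genes of at least 100 CPM outside the neuronal group were smaller: Mir30e at -1.51, the red cell gene Mir451a at -1.34, Mir125a at -1.31 and Mir222 at -1.20, and edgeR called none of these 4, with adjusted p from 0.636 to 1.00. Mir153, at 37.6 CPM, lies under that limit. Nearer its level, Mir1247 (42.4 and 10.3 CPM) had -2.04 and Mir96 (53.6 and 13.4 CPM) -1.99, and edgeR called neither (adjusted p = 0.263 for each). Of the 194 detected genes with means from 17.3 to 917 CPM, 5 were at least 4-fold lower, with the 3 neuronal genes among them.

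The genes that fell and those that did not were set side by side for level, position and overlap with other genes. The 3 that fell lie on chromosomes 2, 6 and 12, and their mean levels, 37.6 to 917 CPM, overlap those of the 4 that did not, 17.3 to 555 CPM. Introns hold 2 of the 3, Mir129-2 and Mir153, and 1 of the 4, Mir338. An opposite-strand miRNA gene covers 1 of the 3 and 1 of the 4. A 20-base stretch is shared with another miRNA gene by both miR-129 loci and by both miR-138 loci. With so few genes, these counts separate nothing.

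Of the other miRNAs known from neurons, some were higher and some lower in replicate 2. From a list of 26, 19 were tested: 1 was at least 2-fold lower, 1 at least 2-fold higher, 8 were called higher and 6 lower at any size, and their median log2 ratio was -0.02. Of all tested genes, 16.9% were called higher and 35.6% lower at any size. The share that was 2-fold lower is near that of all tested genes. With TMM factors, which raise every log2 ratio by 0.14, 11 of these genes were called higher, 3 lower and none 2-fold lower, beside 24.6%, 27.5% and 5.49% of all tested genes, and their median was 0.13. The most abundant were Mir379, from the imprinted Dlk1-Dio3 region, at 4580 and 9030 CPM (log2 ratio 0.98), Mir433 from the same region at 3315 and 3210 CPM, and Mir149 at 1948 and 1163 CPM (-0.74). The 2-fold lower gene was Mir212, at 57.2 and 28.2 CPM (-1.02). Its cluster partner Mir132, which is induced by neuronal activity, was at 1005 and 1436 CPM (0.51). Mir124a-1 and Mir124a-2, copies of a defining miRNA of neurons, had 0 reads and Mir124a-3 had 0 and 1. Reads that fit several of these copies were left out of the counts, so these values set no limit on miR-124 itself.

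Markers of chromaffin and endocrine cells were nearly level. Mir375 had a log2 ratio of -0.08 and Mir7b, at 3891 and 4043 CPM, of 0.06, with Mir7-1 at 0.09 (254 and 270 CPM). The exception was Mir7-2 at 110 and 54.2 CPM (-1.02). With it, 1 of the 4 genes was at least 2-fold lower, beside 8.13% of all tested genes, and the summed level of the list was 50709 and 48363 CPM. Where a gene of this or another list has several copies, its count holds only what could be placed. With TMM factors Mir375 had 0.07 and Mir7-2 -0.88, so the sign of Mir375 turned and 0 of the 4 were 2-fold lower. The glia and Schwann cell list had 0 of 5 genes at least 2-fold changed, beside 8.13% lower and 2.86% higher of all tested genes. Its summed level was 546 and 413 CPM, of which the member Mir338 held 446 and 341 CPM. Mir204 was lower, at 73.7 and 47.1 CPM, as was Mir219a-1 at 18.7 and 13.7 CPM. Mir219a-2 was higher, at 6.05 and 10.4 CPM (log2 ratio 0.76, and 0.90 with TMM factors). In whole tissue, fewer cells of a type and less RNA per cell cannot be told apart.

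Tested markers of other cells all had ratios closer to 0 than the 3 neuronal genes, though many were lower in replicate 2 as well. Beside the counts below, 35.6% of all tested genes were called lower and 16.9% higher at any size, and 8.13% were at least 2-fold lower. With TMM factors, 27.5% were called lower and 5.49% were at least 2-fold lower. The endothelial Mir126a stood at 56684 and 41532 CPM (-0.45), and the smooth muscle genes Mir143 and Mir145a had -0.14 and -0.49, the first turning to 0.01 with TMM factors. All 4 leukocyte genes were called lower by Fisher's exact test, none by 2-fold, with sums of 1147 and 854 CPM; with TMM factors 2 of the 4 were called lower. The red cell genes Mir451a and Mir144 summed to 427 and 175 CPM, and 1 of the 2 was at least 2-fold lower. Mir486a, also on the red cell list, matched no annotated gene and is not in that sum. The annotated Mir486 had 67 and 108 reads (log2 ratio -0.24) and was not called (adjusted p = 0.414 in Fisher's exact test). The brown fat list summed to 608 and 285 CPM, with Mir193b at -1.12 and 1 of 3 genes at least 2-fold lower (-0.97 and 0 of 3 with TMM factors). The steroidogenic and ACTH response list summed to 55694 and 73807 CPM, with Mir139 at 0.07 and Mir21a at 1.11, and 6 of its 8 genes were called higher by Fisher's exact test and 2 lower. Mir132, called higher, and Mir212, called lower, stand in both this list and that of the other neuronal miRNAs, so these lists are not independent. In the epithelial list Mir429, with 36 and 14 reads, had -2.26, the only list gene outside the neuronal group called at least 4-fold lower, and the sum was 843 and 935 CPM. Liver Mir122 stood at 78.1 and 108 CPM, the kidney and intestine list summed to 57.2 and 34.1 CPM, and the striated muscle and pancreas lists stayed under 10 CPM in each library, with no 2-fold call. The striated muscle Mir208a, with 7 and 3 reads, had -2.03 and was not called (adjusted p = 0.0684 in Fisher's exact test). What part differences in these cell markers have in the fall of Mir129-1, Mir129-2 and Mir153 was not tested.

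**Figure D4:**
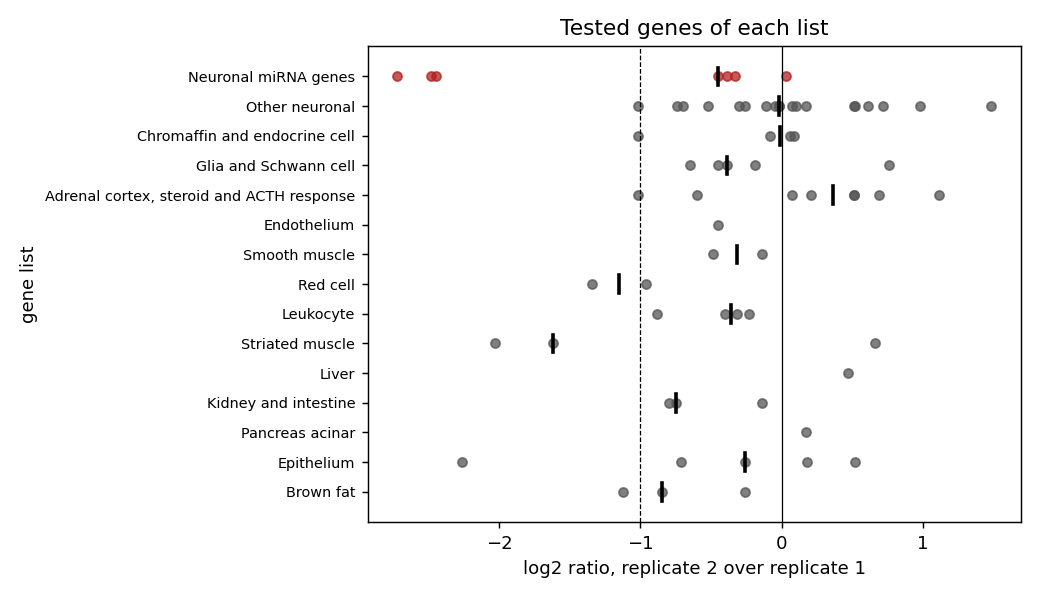
Log2 ratio of replicate 2 over replicate 1 for the tested genes of each list, 1 point per gene, with the list median as a black bar where it has several genes and a dashed line at a 2-fold fall. The 3 neuronal genes at -2.72 to -2.45, which were set apart by their low ratio, lie away from the points of the chromaffin, glial and other neuronal lists. The lowest point of those lists is at -1.02. Nearer to the 3 genes are Mir429 of the epithelial list at -2.26 and Mir208a of the striated muscle list at -2.03.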

How the data were processed

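Small RNA from adrenal gland was sequenced in 2 libraries. The authors deposited raw read counts per miRNA gene, 1 table of 3 unnamed count columns per library. Per the deposited notes the assembly was mm10 and the annotation GENCODE M21. Aligner, counter, trimming and column meanings: not given in the sources used here. From the values, the first column counts both strands and drops reads over opposite-strand genes, and the others count 1 strand each. The first of the single-strand columns, in which Mir129-2 and Mir338 are counted, gave the main values. That choice, the members and the lists were made with earlier results of these data known.

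Entries naming no gene (unmapped, multimapping, off-feature and ambiguous reads) were kept out of totals and held 16.1%, 31.6%, 5.55% and 6.12% of all reads in replicate 1 and 16.5%, 33.6%, 4.99% and 5.24% in replicate 2. Genes with at least 10 reads over both libraries were compared, replicate 2 against replicate 1, by a two-sided Fisher's exact test with Benjamini-Hochberg adjustment at 0.05, in Python 3.11.15 with scipy 1.17.1. A quasi-likelihood fit has no residual degrees of freedom here. Log2 ratios used an offset of 0.5 counts. Alternatives were TMM factors and the exact test of edgeR 4.0.16, DESeq2 1.42.0 size factors, the both-strand column, and other minimums and offsets. The edgeR dispersion came from an intercept model with TMM over all tested genes, whereas the exact test itself used plain totals without TMM factors. Exact 20-base and arm matches were searched among annotated miRNA genes only. Named were all members, opposite-strand and same-seed genes, up to 3 leading genes of each list, and the 5 lowest ratios at 100 CPM or more. Mir7-2, Mir96, Mir124a-1, Mir124a-2, Mir124a-3, Mir132, Mir208a, Mir212, Mir219a-2, Mir429, Mir486 and Mir1247 were named after their values were seen. All but 1 of the listed genes, Mir486a, matched the annotation. Fisher's test was checked on simulated data with counting error only, which does not cover the spread between samples.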

Additional observations from a re-analysis of the deposited data

Results flagged for a closer look

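Mir338 was the only one of the 10 neuronal genes with more than 3 reads in the column that counts the opposite strand, which no comparison of levels used. It held 18 reads there in replicate 1 and 27 in replicate 2, equal to the reads counted for the opposite-strand gene Mir3065 on its own strand. Against the 1622 and 2362 reads of Mir338 itself these are few, and the other 9 genes had 0.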

How the results depend on the processing

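The count of detected neuronal genes was 7, and 5 in the both-strand column, 8 with a minimum of 1 read, 7 with a minimum of 50 and 7 without either replicate. Their share of reads, 0.212%, ranged from 0.119% without replicate 1 to 0.304% without replicate 2, and was 0.0920% in the both-strand column and 0.0979% of all reads. Over all tested genes, the 37 that fell became 25 with TMM factors, 23 with DESeq2 size factors, 31 in the both-strand column, 40 and 27 with minimums of 1 and 50 reads, 2 with edgeR's exact test, 4 with the dispersion of detected genes and 10 at a 4-fold limit. The 3 neuronal genes that fell stayed 3 with TMM and DESeq2 size factors, with both minimums, with the offset of 2 counts and at 4-fold. They were 2 in the both-strand column, where Mir129-2 has too few reads to test, 1 with edgeR's exact test and 3 with edgeR and the dispersion of detected genes. Combining the both-strand column with edgeR gave an adjusted p of 0.0510 for both Mir129-1 and Mir153. Mir138-1 was no longer called with TMM factors or DESeq2 size factors (adjusted p = 0.151 and 0.223, exact binomial test), and Mir137, Mir338 and Mir138-1 were not called by edgeR. No called direction of the neuronal genes reversed in these alternatives. The counts of the other lists with TMM factors were added after the values were seen. Leaving out a replicate leaves 1 library and no ratio. No paired analysis was possible because there is 1 group. Depth limits Mir138-2 most among the tested neuronal genes.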
